A study of Homo sapiens and Mus musculus with 20 samples.

Results

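The AP-1 and immediate early factors examined here are 10 genes, FOS, FOSB, FOSL1, FOSL2, JUN, JUNB, JUND, ATF3, EGR1 and MAFF, taken by symbol from the 17554 genes listed in any of the IMR90 expression tables of the series. Bulk RNA-seq was performed on 12 libraries of IMR90, a single human fetal lung fibroblast line labelled wild type, in 6 groups of 2 libraries. The treatments were A485, which blocks the p300 acetyltransferase, MS-275, which blocks the class I family of histone deacetylases, and pyruvate, and their untreated controls were numbered Control2, Control3 and Control6 in that order. Per the methods, all IMR90 cells were grown in DMEM with fetal bovine serum and non-essential amino acids. The study's results section states that pyruvate was given to senescent cells. The labels give no dose or treatment time for these libraries. No label says that the 2 libraries of a group came from separate cultures, so every p-value below measures the spread between these libraries, which may be technical.

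AP-1 is a family of dimeric transcription factors in which a JUN protein (JUN, JUNB or JUND) pairs with a FOS protein (FOS, FOSB, FOSL1 or FOSL2), an ATF protein such as ATF3 or a MAF protein. FOS, FOSB, JUN, JUNB, ATF3 and the zinc-finger factor EGR1 are immediate early genes, switched on within minutes of serum, growth factors or stress through MAP kinases and serum response factor, and switched off again by phosphatases and Sprouty proteins that the same pathway induces. In fibroblasts AP-1 dimers bind enhancers of matrix proteases, cytokines and cell cycle genes, including genes of the senescence-associated secretory phenotype.

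The members called in the comparisons below were FOSL1, FOSL2, JUND, JUN and MAFF, and the start-site windows of the last 4 are printed here to show their regulatory sequence. JUND and FOSL2 were called in opposite directions after A485, and JUN, MAFF and JUND were called after pyruvate. Each window runs from 250 bases before to 50 bases after the RefSeq transcription start in GRCh38.p14, 5′ to 3′ on the gene's own strand. The windows are chr19:18281573-18281872 on the minus strand for JUND, chr2:28392608-28392907 on the plus strand for FOSL2, chr1:58783998-58784297 on the minus strand for JUN, and chr22:38201744-38202043 on the plus strand for MAFF, whose other window is not printed. Capitals mark letters that match an AP-1 element (TGANTCA) or a CRE-like element (TGANNTCA), searched on both strands.
JUND: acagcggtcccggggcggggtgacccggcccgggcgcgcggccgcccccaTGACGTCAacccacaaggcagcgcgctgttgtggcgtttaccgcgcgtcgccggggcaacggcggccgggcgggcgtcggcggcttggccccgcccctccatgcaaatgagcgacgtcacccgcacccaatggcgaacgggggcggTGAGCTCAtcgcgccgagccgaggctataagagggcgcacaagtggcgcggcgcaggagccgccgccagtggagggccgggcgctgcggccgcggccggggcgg
FOSL2: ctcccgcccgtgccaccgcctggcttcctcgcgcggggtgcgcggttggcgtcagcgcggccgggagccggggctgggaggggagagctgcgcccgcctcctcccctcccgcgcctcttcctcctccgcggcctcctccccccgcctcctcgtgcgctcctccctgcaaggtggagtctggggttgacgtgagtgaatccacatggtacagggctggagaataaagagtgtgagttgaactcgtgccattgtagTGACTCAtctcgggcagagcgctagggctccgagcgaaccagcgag
JUN: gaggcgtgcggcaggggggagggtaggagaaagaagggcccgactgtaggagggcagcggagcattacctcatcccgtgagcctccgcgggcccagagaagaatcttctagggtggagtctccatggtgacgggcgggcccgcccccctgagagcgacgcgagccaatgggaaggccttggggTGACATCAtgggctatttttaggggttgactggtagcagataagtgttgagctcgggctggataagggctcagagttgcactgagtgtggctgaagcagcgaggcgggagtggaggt
MAFF: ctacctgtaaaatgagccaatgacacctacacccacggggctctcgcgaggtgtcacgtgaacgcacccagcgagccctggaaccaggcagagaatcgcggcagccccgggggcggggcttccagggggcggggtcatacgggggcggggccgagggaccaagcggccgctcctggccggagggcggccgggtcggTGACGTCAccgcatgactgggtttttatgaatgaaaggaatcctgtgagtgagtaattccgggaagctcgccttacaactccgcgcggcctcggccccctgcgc

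RefSeq windows were found for 9 of the 10 members, all but FOSL1. The JUND window held TGACGTCA at 200 to 193 bases and TGAGCTCA at 54 to 47 bases before the start, and the MAFF window held TGACGTCA at 54 to 47 bases before the start. The JUN window held TGACATCA at 67 to 60 bases before the start, and so did ATF3 at 123 to 116 bases. FOSL2 held the canonical AP-1 element TGACTCA just downstream of its start, from base 5 to base 11. EGR1 held a pair of CArG boxes, the serum response factor element, and 1 match to GCGNGGGCG, the element that EGR1 itself binds. None of these 4 motifs was found in the windows of FOS, FOSB and JUNB, or in the other windows of ATF3 and MAFF. Only full matches within 250 bases before and 50 after the start were searched, so partial or more distant elements would be missed. Over all 35116 windows of the same length, 7.71% held TGANTCA, 11.5% held TGANNTCA, 1.29% held a CArG box and 9.43% held GCGNGGGCG. These matches describe letters in the windows, and binding was not measured in these data.

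The members lie on 7 chromosomes of hg38, and GENCODE annotates each as protein-coding. FOSL1 spans chromosome 11, 65892049 to 65900573, FOSL2 chromosome 2, 28392448 to 28417317, FOS chromosome 14, 75278826 to 75282230, and FOSB chromosome 19, 45467995 to 45475179. JUN spans chromosome 1, 58776845 to 58784048, while JUNB and JUND lie on chromosome 19 at 12791486 to 12793315 and 18279694 to 18281622. ATF3 spans chromosome 1, 212565334 to 212620777, EGR1 chromosome 5, 138465479 to 138469303, and MAFF chromosome 22, 38200767 to 38216507. FOSB, FOSL2, JUNB and MAFF each overlap a gene on the opposite strand (ERCC1, FOSL2-AS1, HOOK2 and PLA2G6). FOSL2 also overlaps a gene without a symbol on its own strand. These are overlaps of whole gene spans, and overlap of exons was not examined. Since the strand setting of the counting is not given in the sources used here, it is not known whether reads of these pairs were kept apart.

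Values are read counts per gene divided by the authors' size factor for each library, called normalized read counts below. They summed to between 23769581 and 47972633 per library, and the A485 libraries (33254676 and 36124797) summed to less than their controls (43198191 and 47972633). All 8 fibroblast markers examined were listed in every comparison, whereas CDH1, PECAM1, CDH5, PTPRC, CD68 and CD3E were in none of the 3 lists. In bulk RNA, fewer cells of a type and less RNA per cell cannot be told apart. A gene was called when limma gave a Benjamini-Hochberg adjusted p under 0.05, over all genes tested, with an absolute log2 fold change above 1.

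Per kilobase of exon, the most abundant members in untreated cells were JUN, JUND, FOSL1 and, in one experiment, EGR1. In Control2 the normalized count per kb was 2633 and 3091 for FOSL1, 1793 and 2117 for JUN, and 1660 and 2277 for JUND. JUN and JUND thus did not differ beyond the spread of the 2 libraries, and EGR1, at 1134 and 3802, spanned all of them. FOSL2 (1099 and 994) and JUNB (606 and 1106) followed with overlapping levels, then MAFF (267 and 374) and ATF3 (101 and 192). FOS (15.5 and 89.9) and FOSB (3.85 and 15.7) were the least abundant, and FOSB lay between percentile 7.9 and percentile 22.2 of all listed genes in the 8 libraries of the A485 and MS-275 experiments. In Control3 the order per kb was led by JUND (2359 and 2546) and JUN (2068 and 2882), which overlapped, ahead of FOSL1 (1786 and 1141). In Control6 FOSL1 (2705 and 2505) lay above JUN (2078 and 2167), JUN above JUND (1036 and 1023) and JUND above FOSL2 (708 and 624), without overlap between these neighbours, while FOSL2 and MAFF (655 and 631) overlapped. FOS and FOSB were not in the pyruvate list, which is shorter (12013 genes) than the other lists (16683 and 16417 genes), and were not analysed there.

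**Figure D1:**
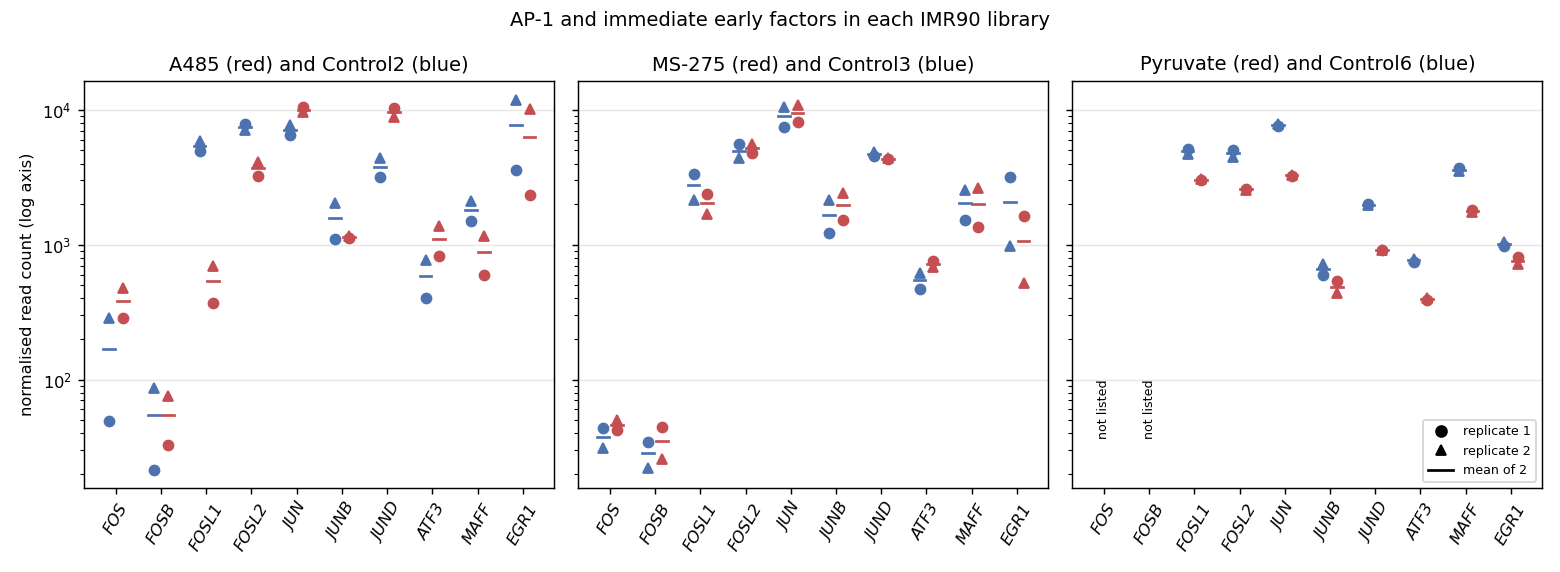
Normalized read count of each member (log axis) in each IMR90 library, with controls in blue, treated libraries in red, circles for replicate 1, triangles for replicate 2 and bars for the mean of 2. FOSL1 falls from 4968 and 5832 in Control2 to 370.0 and 698 after A485, whereas in the MS-275 panel treated and control points of most members overlap.

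The A485 comparison asked how transcription changes when p300 is inhibited. JUND rose, FOSL1 and FOSL2 fell, and the other 7 members were not called. Of the 10 members, 1 was called higher and 2 lower, against 3.31% higher and 7.06% lower of 16084 genes tested (10.4% called in all). The share of all calls that were higher was 31.9%, and it was 65.1% with equal library totals and 42.6% with quantile normalization. All 8 fibroblast markers also lay below both control libraries after A485, as did 30.7% of all genes. Their summed normalized count was 1811998 to 2153880 in control and 575012 to 701218 in A485 libraries. Of the epithelial and endothelial markers, KRT18, KRT19 and VWF were lower (VWF was at 0 in both A485 libraries) and EPCAM was higher, and the part of any of these in the results below was not tested.

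FOSL1 encodes FRA-1, a FOS-family protein without the strong transactivation domain of FOS that is abundant in growing and transformed cells. Its normalized count was 4968 and 5832 in Control2 and 370.0 and 698 in A485 libraries. Both A485 libraries lay far below both controls. The log2 fold change was -3.40 (SE 0.32, 95% interval -4.18 to -2.62), a 10.6-fold fall, with an adjusted p of 0.00358 (limma, Benjamini-Hochberg). Within replicate numbers it fell by 3.74 and 3.06 on the log2 scale. Only 2.33% of all tested genes had a lower fold change, and it was called lower under each of 16 alternative settings and without any one of the 4 libraries.

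FOSL2, which encodes FRA-2, a related and more broadly expressed FOS-family protein, counted 7874 and 7116 in Control2 and 3236 and 4139 in A485 libraries. The groups did not overlap, and FOSL2 was 2.05-fold lower after A485 (log2 fold change -1.03, SE 0.19, limma adjusted p 0.0230, Benjamini-Hochberg). This call sat at the fold threshold, since scaling to equal library totals gave -0.64 and quantile normalization -0.85, neither of which was called. Without any one of the 4 libraries FOSL2 ranged from -1.21 to -0.85 and was not called, with adjusted p between 0.0525 and 0.163.

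FOS, the prototype immediate early gene, counted 49.2 and 286 in Control2 and 285 and 478 in A485 libraries. Control2 replicate 2 reached the level of A485 replicate 1, so the groups overlapped (log2 fold change 1.62, 95% interval -0.35 to 3.60). The FOS change depended on the control library kept, at 2.88 without Control2 replicate 2 and 0.37 without Control2 replicate 1. FOSB, its inducible paralog, counted 21.4 and 86.9 in Control2 and 32.9 and 75.7 in A485 libraries, with a log2 fold change of 0.20.

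JUND, the JUN-family member that is expressed constitutively in many resting cells, moved the other way. It counted 3202 and 4392 in Control2 and 10398 and 8915 in A485 libraries. Both A485 libraries were above both controls, with a log2 fold change of 1.36 (SE 0.21, 95% interval 0.84 to 1.88) and an adjusted p of 0.0148 (limma, Benjamini-Hochberg). The change was 1.75 with equal library totals, under which the median of all genes moved from 0.0088 to 0.40, and 1.63 with quantile normalization (median 0.12). JUND was not called without A485 replicate 1 (1.25, limma adjusted p 0.136), without A485 replicate 2 (1.47, limma adjusted p 0.0928) or when the spread was estimated without an intensity trend (limma adjusted p 0.0722).

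JUN, the founding member, counted 6498 and 7670.5 in Control2 and 10444 and 9665 in A485 libraries. The groups did not overlap, as for 61% of all genes tested, but the log2 fold change of 0.51 (SE 0.17) did not pass (limma, Benjamini-Hochberg adjusted p 0.109). JUNB, an immediate early JUN protein that can oppose JUN, counted 1109.8 and 2023 in Control2 and 1127 and 1152 in A485 libraries. The higher control library alone separated the JUNB means (log2 fold change -0.40, limma adjusted p 0.427), and without it the change was 0.038.

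MAFF, a small MAF protein that lacks a transactivation domain, counted 1499 and 2097 in Control2 and 594 and 1168 in A485 libraries. It lay below both controls, as did 30.7% of all genes, with a log2 fold change of -1.09 (SE 0.36), which did not pass with limma (adjusted p 0.101, Benjamini-Hochberg) and passed with DESeq2 on the recovered reads (-1.03, adjusted p 0.0391). ATF3, a stress-induced ATF protein, counted 403 and 767 in Control2 and 821 and 1381 in A485 libraries, above both controls as 30.4% of all genes were, with a log2 fold change of 0.93 (limma adjusted p 0.173). EGR1 counted 3556 and 11926 in Control2 and 2327 and 10176 in A485 libraries, and the libraries of each group differed from each other by more than the groups did. The log2 difference of replicate 2 over replicate 1 was 1.75 in Control2 and 2.13 in A485 libraries for EGR1, against a treatment effect of -0.42.

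Most other members also differed between replicates, in control or A485 libraries. In Control2, replicate 2 exceeded replicate 1 by 2.52 for FOS, 1.97 for FOSB, 0.93 for ATF3 and 0.87 for JUNB on the log2 scale, while the remaining 5 members differed by -0.15 (FOSL2) to 0.48 (MAFF). In A485 libraries the same differences were 1.18 for FOSB, 0.97 for MAFF, 0.91 for FOSL1, 0.75 for both FOS and ATF3, 0.36 for FOSL2, 0.031 for JUNB, -0.11 for JUN and -0.22 for JUND. The order of the members by spread thus differed between the groups, and only EGR1 and FOSB were above 1 in both. In Control3 the spread was largest for EGR1 (-1.68), with replicate 1 the higher, followed by JUNB (0.80) and MAFF (0.73).

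**Figure D2:**
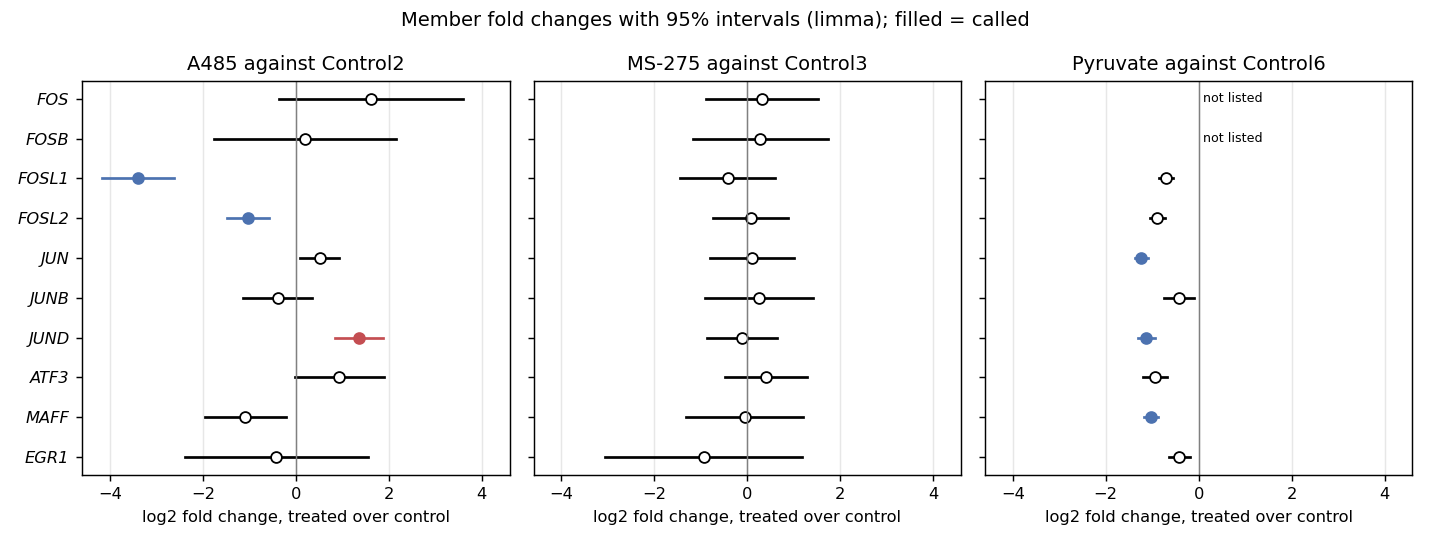
Log2 fold change of each member, treated over control, with the limma 95% interval (n = 2 against 2), filled where called (blue lower, red higher). After A485 the members spread from -3.40 (FOSL1) to 1.62 (FOS), after MS-275 every interval spans 0, and after pyruvate all 8 listed members lie below 0, of which 5 lay above 0 once a GC and length trend was removed.

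The make-up of the FOS and JUN families was described as shares of the summed level per kb of exon, which do not move with the scaling of a library. FOSL1 made up 70.2% and 73.8% of FOS-family transcripts in Control2 and 26.4% and 33.3% after A485. FOSL2 went from 26.5% ± 3.96 to 56.4% ± 6.23 of the family (SD, n = 2) while its own level fell, and FOS from 1.28% ± 1.23 to 12.8% ± 1.04. The summed FOS-family level was 3751 and 4190 per kb in Control2 and 743 and 1112 in A485 libraries. In the JUN family, JUND took 40.9% and 41.4% in Control2 and 60.7% and 58.4% after A485 while the shares of JUN (41.3% ± 4.02 to 33.1% ± 0.89) and JUNB (17.5% ± 3.65 to 7.44% ± 0.72) were lower. The summed JUN-family level was 4059 and 5499 in Control2 and 8888 and 7918 per kb in A485 libraries. A share does not give a gene's own change. JUN's own count was above both controls after A485, as for 30.4% of all genes, and FOS counts overlapped between the groups. With 2 libraries against 2 the smallest two-sided exact permutation p is 0.333, so shares are given without a test.

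**Figure D3:**
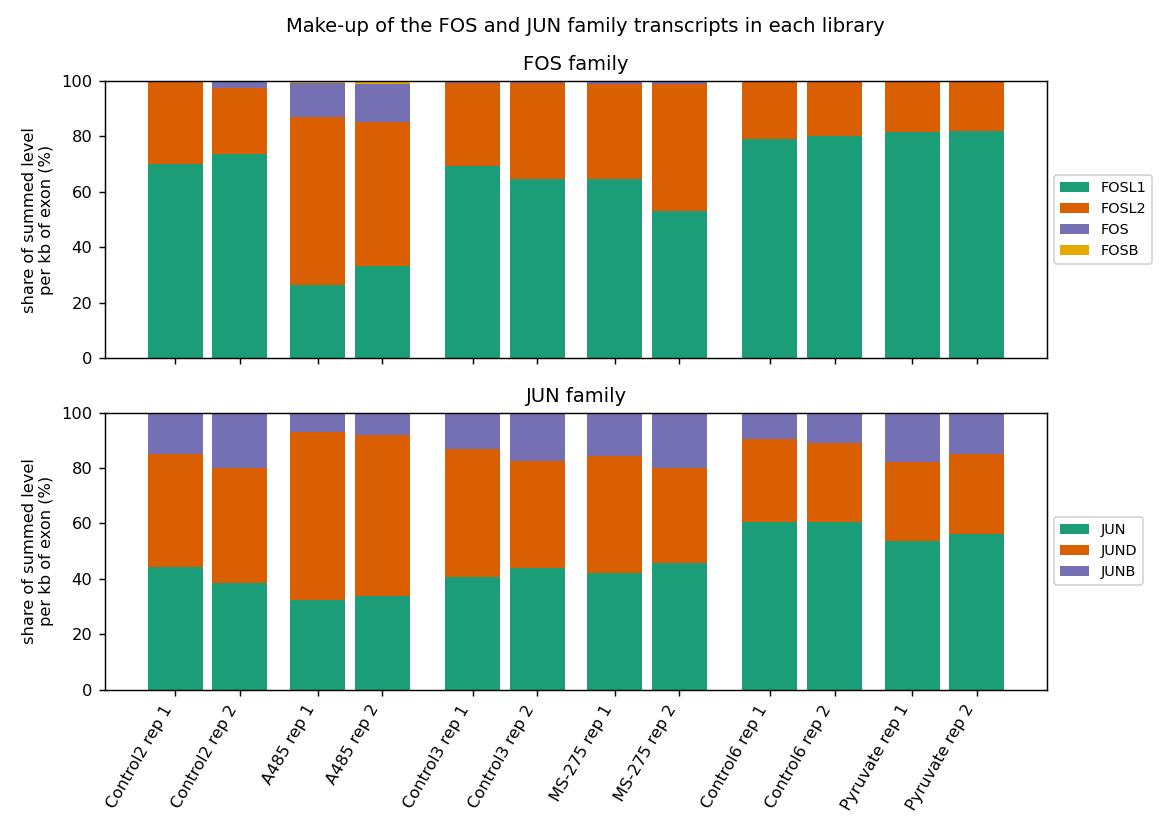
Share of each gene (%) in the summed normalized count per kb of exon of the FOS family (top) and JUN family (bottom), 1 bar per library. FOSL1 takes 70.2% and 73.8% of the FOS family in Control2 and 26.4% and 33.3% after A485. In the pyruvate experiment, where FOS and FOSB are not listed, its share of FOSL1 and FOSL2 stays between 79.3% and 82.0%.

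Of the pathway lists, AP-1 target genes and feedback inhibitors held the most genes called lower after A485, where 7.06% of all genes were called lower and 3.31% higher. Of the 19 tested AP-1 target genes, 10 were called lower and 1 higher, with a median log2 fold change of -2.23 against 0.0088 for all genes. In all, 17 of these 19 and 12 of 15 feedback inhibitors had a value below 0, called or not, against 7955 of 16084 genes. The 8 fibroblast markers were below both controls in the same libraries, as were 30.7% of all genes, and their part in these counts was not tested. Those with the smallest adjusted p (limma, Benjamini-Hochberg) were PLAU, the urokinase protease (-5.24, adjusted p 0.000721), CCL2, a monocyte chemokine (-7.28, adjusted p 0.000812), and HMGA1, an architectural chromatin protein (-3.34, adjusted p 0.00187). With equal library totals, quantile normalization or the GC trend removed, between 9 and 10 targets were called lower and the median ran from -2.19 to -1.83. Of 15 feedback inhibitors, 5 were called lower and 0 higher (median -1.18). They included the ERK phosphatase DUSP6, with 963 and 1898 normalized counts in Control2 and 196 and 179.9 in A485 libraries, the JNK and p38 phosphatase DUSP10 (-2.11) and the receptor tyrosine kinase antagonist SPRY4 (-1.55). Under the same 3 settings 4 to 5 feedback inhibitors were called lower and 0 to 1 higher, with medians from -1.17 to -0.79.

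The AP-1 partners and the upstream kinases were mostly not called. Of 11 tested AP-1 partners limma called 0 (median 0.080), and of 15 upstream kinases and serum response factor genes 1 was called lower. That gene was SRF itself, at 4539 and 5008 normalized counts in Control2 and 1987 and 2750.5 in A485 libraries (log2 fold change -1.03, limma adjusted p 0.0309, Benjamini-Hochberg), and it was not called under those 3 settings (-0.63 with equal library totals). Of 24 other immediate early genes, 1 was called higher and 3 lower. MYC, the growth-promoting factor, counted 2063 and 2166 in Control2 and 340.5 and 263 in A485 libraries. KLF10, a TGF-beta induced repressor, had a log2 fold change of -1.67, and KLF2, a Kruppel-like factor, counted 540.4 and 879 in Control2 and 3815 and 3232 in A485 libraries.

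**Figure D4:**
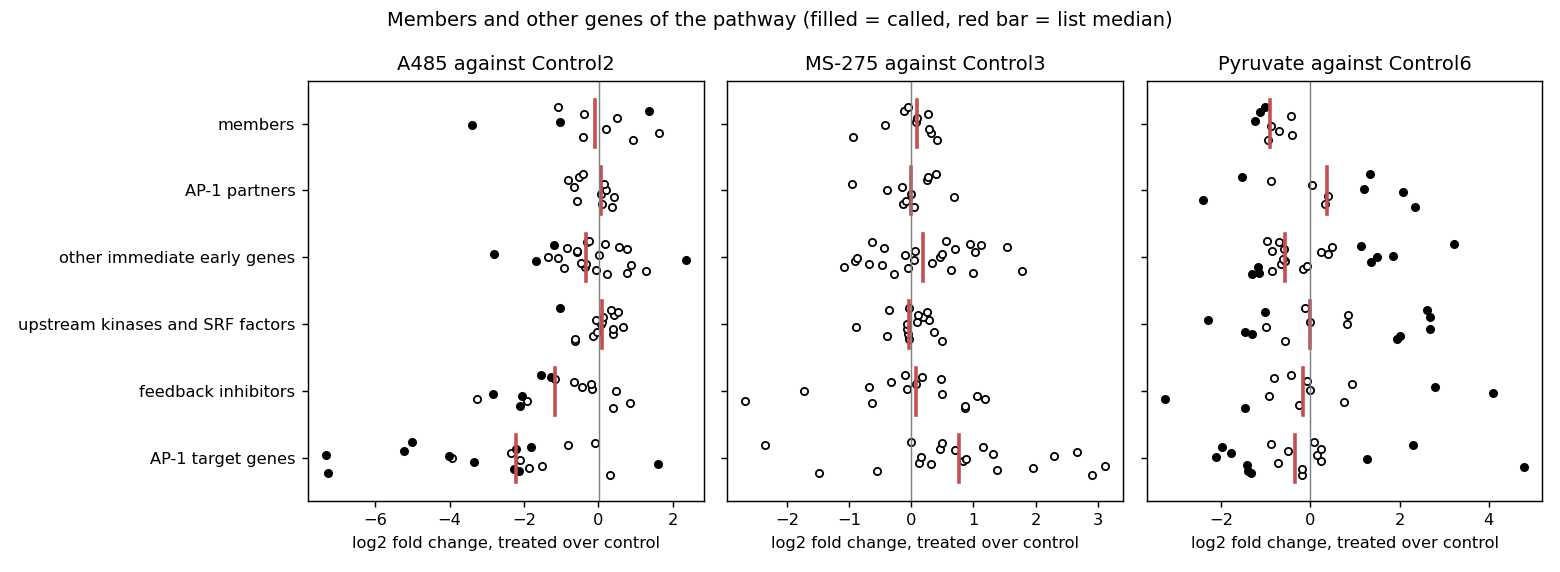
Log2 fold change, treated over control, of the members and of 5 lists of pathway genes in each comparison, with 1 point per gene, filled where called, and a red bar at the list median. After A485 the AP-1 target genes centre on -2.23 and the feedback inhibitors on -1.18, while after MS-275 no point is filled.

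The MS-275 comparison asked how transcription changes when class I deacetylases are inhibited. No member was called, and the same held for all 15883 genes tested (0% called by limma, with 1730 genes, or 10.9%, at an unadjusted p under 0.05). Among the members the smallest unadjusted p was 0.287 and adjusted p ran from 0.793 to 0.994 (limma, Benjamini-Hochberg). This outcome depended on the model. With the replicate number as a block, limma called 1230 genes higher and 953 lower, while no member passed the fold limit. EGR1 then had a limma adjusted p of 1.67e-05 at a log2 fold change of -0.94. The fibroblast marker sum ran from 722890 to 1784102 in Control3 and from 619365 to 1641431 in MS-275 libraries. Of the 8 markers, 1 was below and 1 above both controls, against 19.3% and 19.5% of all genes. The sum of the 3 listed epithelial markers, mostly KRT18, was 1226 to 1828 in Control3 and 755 to 1049 in MS-275 libraries. KRT18 and EPCAM were below both controls. KRT19 was above both, at 56.5 and 28.3 in Control3 and 198 and 107 in MS-275 libraries. VWF alone was listed of the endothelial markers, at 85 to 111 and 125 to 155.

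The members are also described within replicate number, although no label ties a number to a shared culture or day. EGR1 counted 3167 and 984 in Control3 and 1621 and 520.2 in MS-275 libraries. It was lower than the control of its own number in both, by 0.97 and 0.92 on the log2 scale, although MS-275 replicate 1 lay above Control3 replicate 2 and the 95% interval of its fold change ran from -3.06 to 1.17. FOSL1 was likewise lower in both numbers, at 3371 and 2154 in Control3 and 2396 and 1689 in MS-275 libraries, or -0.49 and -0.35. JUND was lower in both numbers as well (-0.069 and -0.17). Across all genes 40.4% were lower in both numbers. ATF3 (0.68 and 0.13), FOSB (0.35 and 0.21), JUNB (0.33 and 0.19) and JUN (0.12 and 0.069) were higher in both. The differences of FOS, FOSL2 and MAFF went in opposite directions in the 2 numbers.

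JUND, at 4551 and 4911 in Control3, was below both controls in the MS-275 libraries, at 4339 and 4361, as were 19.3% of all genes, with a log2 fold change of -0.12 (95% interval -0.87 to 0.63). ATF3 was above both controls, as were 19.5% of all genes, at 755 and 678 against 469 and 621, with a log2 fold change of 0.41 (95% interval -0.48 to 1.29). JUN counted 7496 and 10445 in Control3 and 8164 and 10955 in MS-275 libraries, JUNB 1218 and 2127 against 1527 and 2434, and MAFF 1528 and 2529 against 1362 and 2634. In each of these, replicate 2 was higher than replicate 1 in control and treated cells alike. FOSL2 counted 5549 and 4361 in Control3 and 4806 and 5546 in MS-275 libraries, and its log2 fold change of 0.07 became -0.07 with equal library totals, as JUN's 0.10 became -0.05. FOS (43.6 and 31.3 against 42.6 and 49.8) and FOSB (34.7 and 22.2 against 44.5 and 25.9) had counts no higher than 49.8 in any of the 4 libraries.

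In family shares FOSL1 took 69.2% and 64.7% of FOS-family transcripts in Control3 and 64.7% and 53.0% in MS-275 libraries, and JUND took 42.5% ± 5.44 and 38.2% ± 5.63 of the JUN family (SD, n = 2). Treated and control libraries overlapped in both shares. Of 20 tested AP-1 target genes 0 were called, with a median log2 fold change of 0.77 against -0.0084 for all genes. The collagenase MMP1 counted 7301 and 11384 in Control3 and 46988 and 42622 in MS-275 libraries (2.30 on the log2 scale, limma adjusted p 0.175), and the stromelysin MMP3 97.1 and 110.2 against 557 and 788 (2.67, limma adjusted p 0.167). EREG, an EGF-family ligand, had a log2 fold change of 3.12 (limma adjusted p 0.243). Of 24 other immediate early genes limma called 0, and CCN2, SGK1 and CCN1 had the smallest unadjusted p. The matricellular gene CCN2 (1.78) and the kinase gene SGK1 (1.12) were above both controls on the log2 scale. The same held for CCN1, at 30295 and 26727 against 16312 and 12419.5 normalized counts. Across all genes 19.5% were above both controls. The medians of the AP-1 partners, upstream kinases and feedback inhibitors were -0.0090, -0.039 and 0.081.

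Whether A485 and MS-275 acted differently on a member was tested as the difference between both effects. Only FOSL1 passed, with an effect of -3.40 after A485 and -0.42 after MS-275, a difference of -2.98 (95% interval -4.27 to -1.69, limma adjusted p 0.0314, Benjamini-Hochberg), against 3.81% of 15130 genes passing. JUND differed by 1.48 (95% interval 0.65 to 2.31, limma adjusted p 0.0727) and FOSL2 by -1.10 (95% interval -1.95 to -0.25, limma adjusted p 0.171). For the other 7 members the intervals of the difference spanned 0. The FOSL1 difference did not pass with equal library totals (-2.45, limma adjusted p 0.0506) or with GC and length trends removed (-2.96, limma adjusted p 0.0520), and JUND passed in both (2.02 and 1.38, limma adjusted p 0.0299 and 0.0458). Leaving out Control2 replicate 1 or 2, A485 replicate 1 or 2, Control3 replicate 2 or MS-275 replicate 1 also ended the FOSL1 call, with differences between -3.44 and -2.52.

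The pyruvate comparison asked how senescent cells respond to exogenous pyruvate. All 8 listed members were lower in both pyruvate libraries than in both Control6 libraries with the deposited normalization, as were 45.3% of all genes, and JUN, JUND and MAFF were called lower, but 5 of the 8 turned higher once a trend on GC content and length was removed. This comparison called 54.1% of 12013 genes, 31% higher and 23.1% lower, so that 3 of 8 members called lower stands beside a background of 23.1%. At an adjusted p under 0.05 without a fold limit all 8 members were lower, against 40.2% of all genes. The higher share of all calls was 57.3%, against 71.7% with equal library totals and 68.2% with that trend removed. The fibroblast marker sum was 1174530 to 1269228 in Control6 and 990430 to 1002513 in pyruvate libraries, with 6 of 8 markers below and 2 above both controls. KRT18 (1358 to 1359 and 1070 to 1189) and VWF (104 to 164 and 33 to 46) were the other markers listed, and the part of any of these in the results was not tested.

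JUN counted 7531.5 and 7855 in Control6 and 3219 and 3307 in pyruvate libraries. The 2 libraries of each group nearly coincided and the groups lay far apart, with a log2 fold change of -1.24 (SE 0.06, limma adjusted p 8.38e-09, Benjamini-Hochberg). JUND counted 1998 and 1974 in Control6 and 909 and 912 in pyruvate libraries (-1.12, SE 0.08, limma adjusted p 2.15e-07). JUNB, with the smallest difference of the JUN genes, counted 596 and 723 against 538 and 442 (-0.43, limma adjusted p 0.0170), and its pyruvate libraries came closest to the controls.

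Among the other members, the difference ran from -1.03 for MAFF to -0.41 for EGR1. FOSL2 counted 5069 and 4467 in Control6 and 2598 and 2545 in pyruvate libraries (log2 fold change -0.89), and FOSL1 5104 and 4727 against 3014 and 3055 (-0.69). MAFF counted 3676 and 3542 against 1794 and 1745 (-1.03, limma adjusted p 1.17e-07, Benjamini-Hochberg). ATF3 counted 745 and 783 against 392 and 402 (-0.94), and EGR1 986 and 1045 against 808 and 718 (-0.41, limma adjusted p 0.00367). In contrast with the other experiments, EGR1 differed between control libraries by only 0.08 on the log2 scale. Family shares moved less than after A485, with FOSL1 at 79.7% ± 0.57 and 81.8% ± 0.36 and JUND at 29.3% ± 1.11 and 28.8% ± 0.39 (SD, n = 2). Without FOS and FOSB, the FOS family was here FOSL1 and FOSL2 alone. Of these 2 genes, FOSL1 took 73.11% ± 3.63 in Control2 and 34.65% ± 6.2 in A485 libraries (SD, n = 2).

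Fold changes in the pyruvate experiment followed the GC content of transcripts. Over 11823 genes Spearman's rho of log2 fold change with GC content was -0.718, given as a description since genes are not independent, against -0.112 after A485 and -0.0172 after MS-275. The median log2 fold change went from 1.72 in the lowest of 10 bins of GC content to -1.21 in the highest. All members had a GC content above the list median of 48.6%, from 50.4% (ATF3) to 69.9% (JUND). Among the genes of its own GC bin, JUND (-1.12) lay at percentile 54.7, MAFF at percentile 50.7, JUN at percentile 28.5 and ATF3 at percentile 24.7, while JUNB lay at percentile 84.

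**Figure D5:**
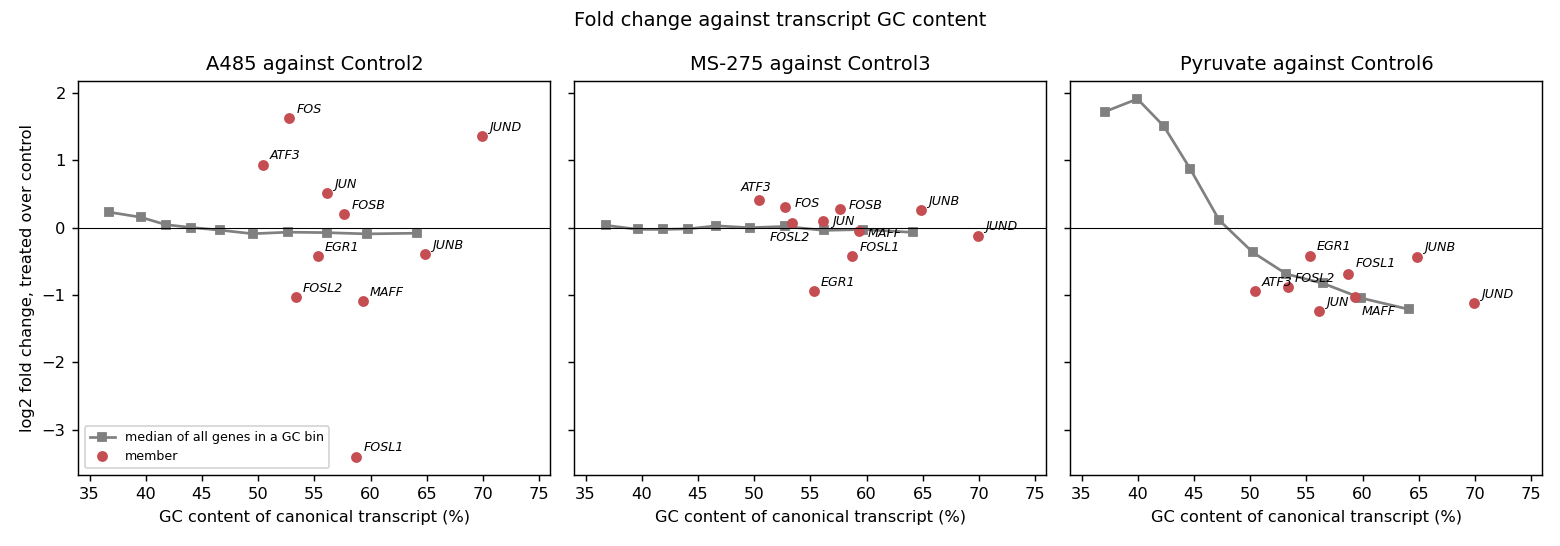
Log2 fold change, treated over control, of the members (red) against GC content of the canonical transcript (%), with the median of all genes in each of 10 bins of GC content (grey squares). In the pyruvate panel the grey line falls from 1.72 to -1.21 and the members lie around it, while in the A485 panel FOSL1 (-3.40) and JUND (1.36) lie far from a nearly flat line.

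With the trend on GC content and length removed from each library, the pyruvate changes of FOSL1 (0.61), JUND (0.61), EGR1 (0.57), MAFF (0.27) and JUNB (1.11) were above 0, and JUNB was called higher (limma adjusted p 0.00025, Benjamini-Hochberg). JUN (-0.24), FOSL2 (-0.37) and ATF3 (-0.20) remained below 0, and the median of all genes was then 0.20. Scaling to equal library totals, which put the median of all genes at 0.30, left every member below 0 but called none of them, with JUN at -0.93, JUND at -0.81 and MAFF at -0.72. Whether the GC trend comes from the libraries or from the cells was not tested.

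The A485 calls of JUND and FOSL1 lay apart from genes of like GC content. JUND, with the highest GC content of the members, lay at percentile 93.1 of its GC bin after A485 and FOSL1 at percentile 1.53. With the GC and length trend removed JUND had a log2 fold change of 1.28 and FOSL1 of -3.38, and both were called, whereas FOSL2 (-0.86) was not.

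Pathway genes were called in both directions after pyruvate, where 31% of all genes were called higher and 23.1% lower, and their calls also moved when the GC and length trend was removed. The counts below are descriptions beside those shares, and no list was tested against other genes. Of 15 upstream kinases and serum response factor genes, 5 were called higher and 4 lower, the latter including the ERK pathway kinases MAPK3 (6904 and 7057 normalized counts in Control6, 1333 and 1531 in pyruvate libraries), MAP2K2 (-1.47) and MAP2K1 (-1.32). With the trend removed 2 of the 15 were called higher and 0 lower by limma, and MAP2K2 was at 0.097, MAPK3 at -0.90 and MAP2K1 at -0.53. Of 12 feedback inhibitors 2 were called higher and 2 lower. The phosphatase DUSP5 counted 8082 and 8664 in Control6 and 868 and 867 in pyruvate libraries, DUSP1 had a log2 fold change of -1.46 and the Sprouty-related inhibitor SPRED1 one of 2.79, and the calls of DUSP5 and SPRED1 held with the trend removed (-2.13 and 1.12). Of 21 other immediate early genes 5 were called higher and 3 lower. TIPARP, an ADP-ribosyltransferase, rose from 218 and 261 to 2093 and 2359 normalized counts, with the survival factor MCL1 at 1.85 and KLF6 at 1.49 on the log2 scale. With the trend removed TIPARP (1.72) and MCL1 (1.24) were still called higher, and KLF6 was at 0.94.

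Among 10 tested AP-1 partners, 4 were called higher and 2 lower, with the small MAF protein MAFK at -1.54 and the partner factors NFE2L2 and ATF2 at 1.33 and 2.35, none of which was called with the trend removed (-0.30, 0.31 and 0.79). Of 18 AP-1 target genes, 3 were called higher and 6 lower, with a median of -0.35 against -0.0070 for all genes. Among those called lower, the cytokine LIF had a log2 fold change of -2.11 and the cyclin CCND1 one of -1.40, and both were called lower with the trend removed as well (-1.20 and -1.05).

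Across the 12 libraries, the genes whose pattern was most like a member were found by Pearson's r of log2 values centred on each experiment's control, among 9768 genes. For FOSL1 these were FLNA, an actin crosslinker (0.993), CASS4 (0.991) and SMAD3, a TGF-beta effector (0.989). SMAD3 had log2 fold changes of -2.25 after A485, -0.19 after MS-275 and -0.20 after pyruvate. For JUN they were UBAC2 (0.995), AK1 (0.993) and SLC50A1 (0.991), and AK1 had log2 fold changes of 0.69, 0.017 and -2.19 in the same order. For EGR1, whose pattern is mostly the difference between libraries of one group, the closest genes reached only 0.887 (PCDHGA12), 0.882 (LAMA1) and 0.865 (AP2B1). The largest change of FOSL1 was after A485 (-3.40) and that of JUN after pyruvate (-1.24), so a high r can rest mostly on that experiment. The 4 libraries of an experiment share its normalization, and no p is given.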

How the data were processed

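Bulk RNA-seq of 12 IMR90 libraries was used, grouped by their titles. The mouse muscle libraries of the series were not used here. Per the labels and methods, reads were trimmed with Trim Galore 0.6.10, aligned to hg38 with HISAT2 2.2.1, sorted with SAMtools 1.7 and counted per gene with featureCounts 2.0.6. The authors deposited a signal per gene and library, which is the read count divided by a DESeq2 1.34.0 size factor, in a list for each experiment. The gene annotation and strand setting are not given in the sources used here. Lists were normalized separately, so tests were made within a list, except for the difference between the A485 and MS-275 effects. FOS and FOSB were not listed in the pyruvate experiment. The lists also differ in length, which affects the background of each comparison.

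Values were analysed as log2(value + 1), which understates the change of low genes, for genes with a mean of at least 10. limma 3.58.1 (R 4.3.3) was run over all genes with an intensity trend and Benjamini-Hochberg adjustment. The procedure was tested on simulated data with a fixed spread and no effect of replicate number. That test does not show how it performs at the spread of these libraries. A call needed a log2 fold change above 1 in size and an adjusted p under 0.05. The values do not give depth directly. In the A485 experiment whole reads could be recovered for 100% of values (tolerance 0.01 reads), giving between 39194881 and 40557867 reads per library. On these reads edgeR 4.0.16 called 542 genes higher and 1122 lower, and DESeq2 1.42.0 called 782 and 1543. Whole reads were not recovered for the MS-275 and pyruvate values, so the depth of those libraries is not given and no count test was run on them. Counting error is part of the spread between libraries. Gene positions, exon lengths and GC content came from GENCODE 44, and start-site windows from RefSeq. Tables and figures were made with Python 3.11.15, numpy 2.4.6, pandas 2.3.3 and matplotlib 3.10.9.

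The 10 members and the lists of pathway and marker genes were chosen with earlier results of these data known. All members were named. Of each pathway list, up to 3 genes with the smallest p among those called were named (or among those tested where none was called), with a mean of at least 100. A gene that this rule would name is not reported here. Alternatives covered the pseudocount, filter, scaling, spread estimate, replicate number, GC content and length, call threshold, count tests and leaving out each library. For GC content and length, a spline with 5 degrees of freedom was removed from each library.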

Additional observations from a re-analysis of the deposited data

How the results depend on the processing

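Over the alternatives, 174 of 198 member values in the A485 comparison, 164 of 176 in the MS-275 comparison and 118 of 144 in the pyruvate comparison kept both their direction and their side of the threshold. After A485, 2 members were called higher and 1 lower with equal library totals, 1 was called lower with quantile normalization or the GC and length trend removed, and 0 were called higher and 1 lower without an intensity trend in the spread. Leaving out 1 library, members called higher ranged from 0 to 2 and lower from 1 to 1. After pyruvate, 0 members were called lower with equal library totals, 6 with a minimum log2 fold change of 0.58 and 8 by adjusted p alone. With the GC and length trend removed 0 were called lower and 1 higher, and FOSL1 (0.61), JUNB (1.11), JUND (0.61), EGR1 (0.57) and MAFF (0.27) changed sign. The difference between the A485 and MS-275 effects passed for 2 members with quantile normalization and for 0 to 1 without 1 library. Equal library totals turned the MS-275 changes of FOSL2 (-0.073) and JUN (-0.047) and the FOSB difference (0.44, and 0.13 with quantile normalization).

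Leaving out 1 library turned the A485 changes of FOSB (-0.79 to 1.19), JUNB (-0.83 to 0.038) and EGR1 (-1.48 to 0.64), none of which was called. It also turned the MS-275 changes of FOSB (-0.097 to 0.66), FOSL2 (-0.10 to 0.24), JUN (-0.14 to 0.34), JUNB (-0.14 to 0.66) and MAFF (-0.53 to 0.42). The differences between effects ran from -1.07 to 0.90 for FOSB and from -0.54 to 1.59 for EGR1. Without division by exon length, the FOSL1 share differed by -29.9 percentage points after A485 and 3.34 after pyruvate, and the JUND share by 15.9 and 0.309. Without 1 library the JUND share after pyruvate ranged from -1.32 to 0.249 percentage points, against -0.537 with all 4. The cause of these shifts was not tested.

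No label says that replicate numbers pair libraries, and deviations of same-numbered libraries correlated with r = 0.316 for A485, 0.728 for MS-275 and 0.002 for pyruvate, over genes. With 2 pairs a comparison, the numbers were not taken as pairing. With the replicate number as a block, limma called 2 members higher and 3 lower after A485, adding FOS (1.62, adjusted p 0.0348) and MAFF (-1.09, adjusted p 0.00794), and 4 differences between effects passed. With block and GC trend removal together, 2 members were called higher after A485, and 1 higher and 0 lower after pyruvate (FOSL1 0.61, JUNB 1.11, JUND 0.61, EGR1 0.57, MAFF 0.27). The block called 1230 genes higher and 953 lower after MS-275, where 0 were called without it. No member passed the fold limit there, although EGR1 (-0.94, limma adjusted p 1.67e-05) and FOSL1 (-0.42, limma adjusted p 0.00808) had an adjusted p under 0.05 with it.

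Over all genes, the A485 counts were 258 higher and 582 lower without an intensity trend, 870 and 1616 with the block, 339 higher in a fit of all 12 libraries, 1677 higher with equal library totals, and 14 and 215 or 11 and 290 without A485 replicate 1 or 2, against 532 and 1135. One fit over all 12 libraries called 220 genes higher and 267 lower after MS-275, and leaving out 1 library called 20 to 318 higher and 11 to 152 lower, with the lone library assumed to vary like the others. After pyruvate 2422 and 1130 genes were called with the GC and length trend removed, 1741 lower with equal library totals and 4832 lower by adjusted p alone, against 3726 and 2777. Differences between effects passed for 576 genes, for 4401 with the block and for 1141 with the GC and length trend removed. No count test was run on the MS-275 or pyruvate values, for which whole reads were not recovered. After MS-275 the 95% intervals of the members are wide, as for EGR1 (-3.06 to 1.17), so changes of that size were not detectable without the block.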
